A study of Mus musculus with 4 samples.

Results

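The proteins that coat liver lipid droplets and the lipases that act on them were measured here as 10 genes: Plin2, Plin4, Plin5, Cidea, Cideb, Cidec, Pnpla2, Pnpla3, Pnpla5 and G0s2. Every non-control probe whose gene name in the scanner files was one of these was taken, which gave 11 probes of the 41174 probes on the array, since Pnpla2 had 2 probes and the other 9 genes had 1 each. The liver RNA came from male C57BL/6J mice bought at 8 weeks of age and made obese by a high-fat diet for 14 weeks (diet-induced obesity, DIO), and all of them weighed at least 40 g. The high-fat diet continued during treatment. Acclimatization with daily intranasal saline came first, for 2 weeks per the labels and 1 week per the methods. Galanin-like peptide (GALP, a hypothalamic neuropeptide) of porcine sequence was prepared at 1 nmol in saline with 5% α-cyclodextrin. It was given into the nose in a volume of 2 µL once daily for 11 days. Control mice received saline by the same route, and whether it held cyclodextrin is not stated. The 8 treated animals were split by their weight loss, and liver RNA was combined into a greater weight loss pool (4 mice) and a less weight loss pool (4 mice), while the 8 saline animals gave a single control pool. The weight loss groups thus follow the response of the mice and were not assigned beforehand. Each GALP pool was hybridised with the control pool on 2 dual-colour Agilent arrays, once in each dye (Cy3 or Cy5), and all 4 arrays lay on 1 slide.

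Neutral fat in hepatocytes is stored in droplets with a phospholipid surface. Perilipins coat that surface and control the access of lipases, CIDE proteins enlarge droplets by passing lipid from one to another, and patatin-like phospholipases (the Pnpla family) cleave the stored triglyceride. G0s2 is a small inhibitor of Pnpla2, which is the main triglyceride lipase of the cell and is also called ATGL. In fatty liver, perilipins and Cidec are known to be abundant, and several of these genes are known targets of the PPAR nuclear receptors, of SREBP-1c or of insulin signalling.

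The windows of 250 bases before the transcription start of 3 members with the highest ratios (Cidec, Plin4 and Plin5) and of Pnpla5, the member with the lowest, are shown because these are the regulatory sequences closest to the measured differences. They are taken from RefSeq on build GRCm38.p6, run 5′ to 3′ on the strand of the gene and end at the base before the start of transcription. Where a gene has more than 1 start, the most upstream one is shown. Matches on either strand to AGGTCA (the half-site of many nuclear receptors), CACGTG (an E-box), CCAAT and GGGCGG (a GC box) are in capitals, and none of these matches overlapped another in the windows shown.
Cidec: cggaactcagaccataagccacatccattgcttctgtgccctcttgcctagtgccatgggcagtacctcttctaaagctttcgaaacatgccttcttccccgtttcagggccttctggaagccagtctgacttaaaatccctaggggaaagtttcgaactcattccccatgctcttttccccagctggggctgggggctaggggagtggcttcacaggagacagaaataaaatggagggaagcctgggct
Plin4: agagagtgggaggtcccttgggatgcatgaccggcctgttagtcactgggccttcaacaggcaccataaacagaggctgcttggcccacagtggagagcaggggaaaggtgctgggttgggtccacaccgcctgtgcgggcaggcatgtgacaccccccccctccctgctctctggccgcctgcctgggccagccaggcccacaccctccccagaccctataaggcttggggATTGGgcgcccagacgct
Plin5: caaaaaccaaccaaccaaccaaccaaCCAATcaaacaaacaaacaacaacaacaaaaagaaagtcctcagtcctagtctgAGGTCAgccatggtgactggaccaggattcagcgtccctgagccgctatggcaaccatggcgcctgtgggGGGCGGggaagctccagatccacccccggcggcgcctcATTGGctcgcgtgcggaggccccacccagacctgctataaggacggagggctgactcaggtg
Pnpla5: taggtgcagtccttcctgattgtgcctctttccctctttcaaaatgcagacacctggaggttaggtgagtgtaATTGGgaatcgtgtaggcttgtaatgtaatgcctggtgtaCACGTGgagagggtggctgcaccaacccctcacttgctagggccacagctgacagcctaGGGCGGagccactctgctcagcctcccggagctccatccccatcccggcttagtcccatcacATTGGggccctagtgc
The windows lie at chr6:113435761-113436010 for Cidec, chr17:56109783-56110032 for Plin4, chr17:56117549-56117798 for Plin5 and chr15:84123176-84123425 for Pnpla5, all on the minus strand. The Cidec window held none of the 4 motifs. The Plin4 window held only a CCAAT match, in reverse orientation, 18 bases before the start. The Plin5 window held an AGGTCA match 170 bases, a GGGCGG match 100 bases and CCAAT matches 224 and 62 bases before the start. Among the member windows examined, only that of Pnpla5 held a CACGTG match, which began 137 bases before the start. RefSeq windows of 9 of the 10 genes were examined, with 11 windows in all because Cidec and Plin5 have 2 starts each. AGGTCA was found in 2 of the 11 windows (Plin2 and Plin5) against 14.0% of 32817 windows of all genes, and CACGTG in 1 of 11 against 6.02%. CCAAT was found in 5 of 11 against 33.8%, and GGGCGG in 7 of 11 against 32.7%. The direct repeat AGGTCANAGGTCA, a form of PPAR site, was in 0 of the 11 windows and in 0.0335% of all windows. So rare an exact match was unlikely in 11 windows, so its absence does not tell whether the members have PPAR sites. The motif matches describe the letters of the windows and do not show binding. Plin4 and Plin5 are neighbours on chromosome 17 with starts 7.8 kb apart, and Pnpla3 and Pnpla5 are neighbours on chromosome 15 with starts 44.6 kb apart.

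Each array had 43379 spots. In the channel with the fewest, 40.5% of them were well above background, and in the channel with the most, 46.7%. None was saturated. Of the 41174 probes, 14453 were well above background in all 8 channels (GALP and control on 4 arrays), and 9 of the 11 member probes were among them. The probes of Pnpla3 and Pnpla5 were not. All values below are log2 ratios of GALP over control unless they are called signals, and a pool value is the mean of its 2 arrays. The means ± SD are over n = 2 GALP pools. The control pool was the same on every array, so its own spread entered no error and no test. Hepatocyte markers were well above background for all 9 genes of that list on the array, with pool values between -0.22 and 0.31 at the brightest probe, and so the labelled tissue carried its defining transcripts. Signals of different probes were not compared, and precision is limited by having only 4 arrays.

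Of the 8 member genes with signal, 5 were higher with GALP on all 4 arrays (Cidec, Plin4, Plin5, Pnpla2 and G0s2), and none was lower on all 4. Among all 11412 genes with signal, 12.8% were higher and 14.5% were lower on all 4 arrays. By probe, 6 of the 9 member probes above background in all channels were higher on all 4 arrays against 11.8% of all such probes, and 0 of 9 were lower against 16.1%. Pnpla5 was lower on all 4 arrays with its GALP channels at background. The signal filters left it out of these counts and of the median that follows. The median pool-averaged ratio of the 8 genes was 0.24 (0.23 in the greater and 0.29 in the less weight loss pool), and the median of all genes with signal was -0.01. The members were chosen with earlier results known, so these shares and medians are descriptions. In pooled tissue RNA a change in the number of cells of a type cannot be told apart from a change in RNA per cell. No member probe was called by either test. The study selected genes at p-values under 0.01 and at folds beyond 1.5 and 0.75 for changes common to both groups, and how many arrays must meet the p-value is not given. What is called the rule of the methods here is a strict reading: a Feature Extraction p-value under 0.01 on all 4 arrays, the same direction on all 4, and in each pool a fold that exceeds 1.5 or is below 0.75. It called 0 of the 11 member probes, against 0.0585% (24 of 41037 probes) higher and 0.132% (54 of 41037) lower on the whole array. limma on the 2 pool values called 0.0% of the 41037 probes at an adjusted p under 0.05, and the lowest adjusted p was 0.374. At an unadjusted limma p under 0.05, 3 of 11 member probes were higher (Cidec, Plin5 and 1 probe of Pnpla2) against 4.99% of all probes, and 2 of 11 were lower (Pnpla5 and Plin2) against 6.6%. Of these, Plin2 had a mean of only -0.06 and was higher on 2 arrays and lower on 2. Asking for the Feature Extraction p-value under 0.01 on only 1 or more arrays of each pool, the rule called Cidec (1 of 11 member probes against 0.129% of all probes higher) and Pnpla5 (1 of 11 against 0.405% lower). Whether the rule used here calls these genes thus depends on how the methods are read. The paper itself lists Pnpla5 among its most decreased genes. Without any p-value, the rule also named Cidec (1 of 11 member probes against 0.375% of all probes higher) and Pnpla5 (1 of 11 against 0.877% lower).

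**Figure D1:**
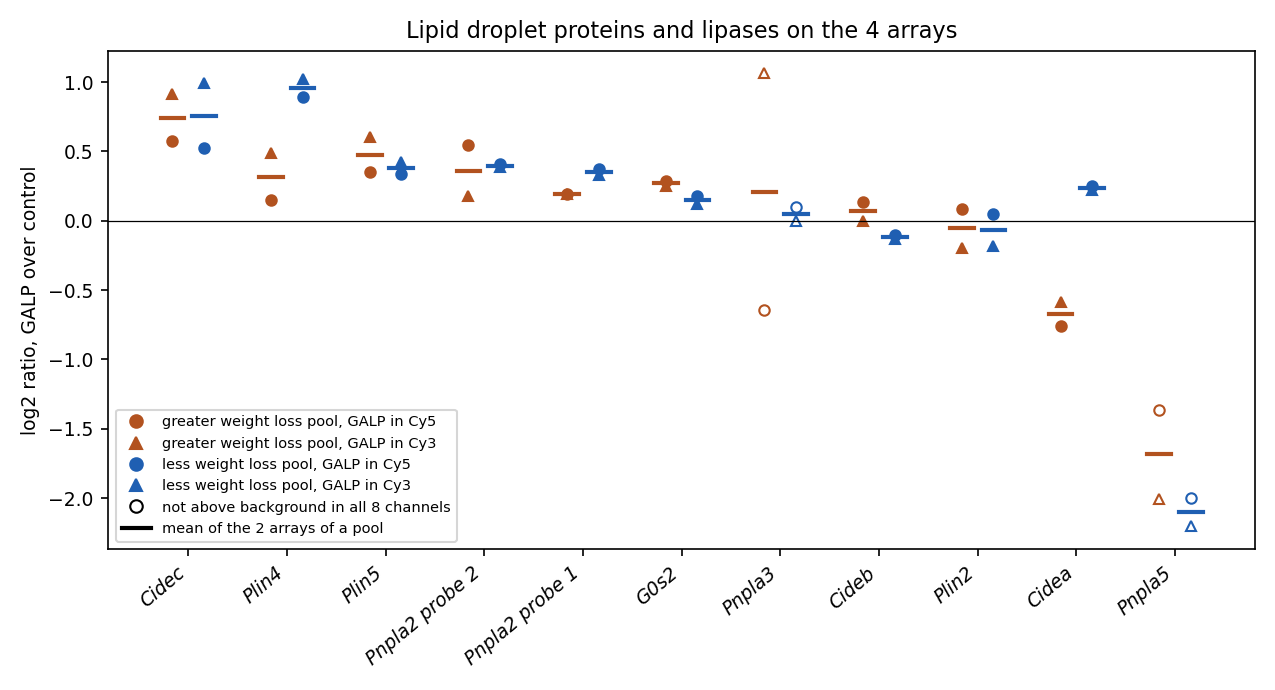
Log2 ratio of GALP over control (y axis) for each of the 11 member probes (x axis, ordered by the mean of both pools). Points are single arrays, coloured by GALP pool and shaped by the dye of the GALP pool, bars are the means of the 2 arrays of a pool, and open points mark probes that were not above background in all 8 channels. Cidec, Plin4, Plin5, both probes of Pnpla2 and G0s2 lie above 0 on all 4 arrays, Pnpla5 lies below 0 on all 4, and the pools of Cidea lie on opposite sides of 0.

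Cidec had the highest mean ratio of the members. Its protein (also called Fsp27) sits where droplets touch and drives the exchange of lipid by which the larger one grows. The control signal was 11184 and 7692 on the arrays of the greater weight loss pool and 12240 and 8655 on those of the less weight loss pool, with GALP in Cy5 named first in each pair. The GALP signal was 16622 and 14506 in the greater pool and 17621 and 17198 in the less pool. GALP exceeded control on every array, and the lowest GALP signal was above the highest control signal. The log2 ratios were 0.57 and 0.92 in the greater pool and 0.53 and 0.99 in the less pool. The pools agreed within each dye orientation, and in both the ratio was larger with GALP in Cy3. The mean was 0.75 ± 0.01 (SD, n = 2 pools), a 1.68-fold higher level, and 99.7% of probes above background in all channels had a lower mean ratio. Cidec missed the rule of the methods by its p-value on 1 array, which was 0.0121 for the less pool with GALP in Cy5, beside 0.00664 and 3.32e-05 in the greater pool and 9.13e-06 on the other array of the less pool. Its limma p was 0.0013 and its adjusted p 0.374. The SD and the limma p rest on the small distance between the pool means. The 2 arrays of a pool lay 0.34 apart in the greater and 0.46 apart in the less pool. With normexp background correction and loess in place of the processing of the scanner software, limma gave Cidec an adjusted p of 0.0287. That equals the lowest adjusted p of the array, a value that several probes can share, so it gives Cidec no rank. With the 4 arrays fitted with the pool as a random block, limma gave Cidec 0.0857. So Cidec passed limma only where background correction and normalization were both replaced, and which of these matters was not tested. The probe lies at chr6:113374693-113374752 (mm9, minus strand) and begins at base 1584 of the transcript. Over 9815 other named genes above background in all channels, the 3 whose 4 array ratios lay closest to those of Cidec were Usp2, Timp3 and Gsta1, at Euclidean distances of 0.26, 0.33 and 0.34 on the log2 scale. Usp2, a deubiquitinating enzyme, had pool values of 0.67 and 0.89 in the greater and less pools. Timp3, an inhibitor of matrix metalloproteinases, had 0.62 and 0.67, and Gsta1, a glutathione transferase, had 0.77 and 0.59.

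Plin5, the perilipin that ties droplets to mitochondria in oxidative tissues, was also higher on every array. Its control signal was 5639 and 4376 on the arrays of the greater pool and 5452 and 5201 on those of the less pool, and its GALP signal was 7188 and 6642 in the greater pool and 6893 and 6983 in the less pool. All 4 GALP signals were above all 4 control signals. The log2 ratios were 0.35 and 0.60 in the greater pool and 0.34 and 0.43 in the less pool. The mean was 0.43 ± 0.07 (SD, n = 2 pools), or 1.35-fold, and the array ratios of the pools overlapped. The scanner software gave it a p-value under 0.01 on 1 array (0.0044), its limma p was 0.0224 and its adjusted p 0.382. The probe lies at chr17:56251101-56251160 (mm9, minus strand).

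Plin4, a perilipin best known from adipocytes and muscle and found on small nascent droplets, was higher mainly in the pool with less weight loss. Its control signal was 2726 and 2046 on the arrays of the greater pool and 2581 and 2132 on those of the less pool. Its GALP signal was 3027 and 2863 in the greater pool and 4789 and 4323 in the less pool. The log2 ratios were 0.15 and 0.49 in the greater pool and 0.89 and 1.02 in the less pool, so the arrays of the pools did not overlap. The mean was 0.64 ± 0.45 (SD, n = 2 pools), and the pools stood at 1.25-fold and 1.94-fold. Its p-value was under 0.01 on both arrays of the less pool (4.96e-05 and 5.52e-06) and on neither of the greater pool (0.46 and 0.0202). Its limma p was 0.18. The pools lay 0.64 apart, and 1.65% of probes above background in all channels had pools at least this far apart. With 1 pool in each weight loss group, the difference between the groups could not be tested. The probe lies at chr17:56240055-56240114 (mm9, minus strand).

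The skeletal muscle markers also separated the pools. The 5 of 6 markers with signal (Acta1, Ckm, Myh4, Mylpf and Tnnt3) had pool values from 0.02 to 0.81 in the greater pool and from -2.88 to -1.62 in the less pool, while Actn3 was well above background in 1 of 8 channels. GALP was well above background on 2 of 4 arrays for Myh4 and on 3 of 4 for Ckm and Mylpf. The ratios on their other arrays are limits. The summed signal of the 5 markers, which includes such values, was 1363 to 1616 in the control channels, 1678 to 2275 in the greater pool and 263 to 325 in the less pool. Plin4 was higher in the pool in which the muscle markers were lower. The part of muscle RNA in the values of Plin4, Plin5 and Pnpla2 was not tested.

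Pnpla2 was higher on every array at both of its probes. The brighter probe (chr7:148645930-148645989 on mm9, plus strand, from base 1754 of the transcript) had log2 ratios of 0.19 and 0.19 in the greater pool and 0.37 and 0.33 in the less pool. Its GALP signal ran from 959 to 1320 and its control signal from 839 to 1022. The other probe (chr7:148645100-148645159, from base 1023) had 0.54 and 0.18 in the greater pool and 0.41 and 0.39 in the less pool. The means were 0.27 ± 0.11 and 0.38 ± 0.02 (SD, n = 2 pools), or 1.21-fold and 1.30-fold. The limma p was 0.0866 for the brighter probe and 0.00733 for the other, with adjusted p of 0.51 and 0.374. The SD and limma p of the other probe rest on the small distance between the pool means, and its arrays in the greater pool lay 0.37 apart. A Feature Extraction p-value under 0.01 was seen on a single array at the second probe (0.00993) and on none at the first.

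G0s2, the inhibitor of Pnpla2, was higher by smaller amounts. Its GALP signal was 5257 and 5273 in the greater pool and 5450 and 4416 in the less pool, against control signals of 4305 and 4436 and of 4817 and 4055. The log2 ratios were 0.29 and 0.25 in the greater pool and 0.18 and 0.12 in the less pool, and the arrays of the pools did not overlap. The mean was 0.21 ± 0.08 (SD, n = 2 pools), or 1.16-fold, with a limma p of 0.0856 and no Feature Extraction p-value under 0.01. The lipase and its inhibitor were thus both above control on all 4 arrays. G0s2 was more so in the greater pool, and Pnpla2 was more so in the less pool at its brighter probe. At the other Pnpla2 probe the greater and less pools stood at 0.36 and 0.40, and their arrays overlapped. The G0s2 probe lies at chr1:195098925-195098984 (mm9, minus strand).

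Plin2 and Cideb lay close to the control. Plin2, the main perilipin of hepatocytes, had log2 ratios of 0.09 and -0.19 in the greater pool and 0.05 and -0.18 in the less pool, so its sign followed the dye in both pools. Its mean was -0.06 ± 0.01 (SD, n = 2 pools). Its limma p of 0.0491 rests on the small distance between the pool means, and the 2 arrays of a pool lay 0.28 and 0.23 apart. Cideb, the CIDE protein of hepatocytes that also takes part in the lipidation of very-low-density lipoprotein, had 0.14 and -0.00 in the greater pool and -0.10 and -0.13 in the less pool. Its mean was -0.03 ± 0.13, with a limma p of 0.78. The probes lie at chr4:86302676-86302735 for Plin2 and chr14:56373987-56374046 for Cideb (mm9, minus strand).

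Cidea, the CIDE protein first known from brown fat and raised in fatty liver, had opposite signs in the pools. Its log2 ratios were -0.76 and -0.59 in the greater weight loss pool and 0.25 and 0.22 in the less weight loss pool. Its control signal was 3832 and 3494 on the arrays of the greater pool and 4153 and 3669 on those of the less pool. Its GALP signal was 2265 and 2323 in the greater pool and 4951 and 4282 in the less pool. The GALP signals of the greater pool were below all 4 control signals, and those of the less pool were above all 4. The pools stood at 0.63-fold and 1.18-fold, and the mean of -0.22 ± 0.64 (SD, n = 2 pools) describes neither. The p-values were under 0.01 on both arrays of the greater pool (0.000433 and 0.00526) and not on those of the less pool (0.217 and 0.277). Of the probes above background in all channels, 2.91% were lower on both arrays of the greater pool and higher on both of the less pool, and 0.657% had pools at least as far apart as the 0.91 of Cidea, in either direction. The difference between the weight loss groups could not be tested with 1 pool each. Cidea is the member that was left out of the promoter windows, so its motifs were not examined. The 3 genes closest to Cidea over the 4 arrays, at distances of 0.37, 0.37 and 0.39, were Gal3st1, a sulfotransferase of glycolipids, Smpd3, a neutral sphingomyelinase, and Lrrc39. Their pool values were -0.47 and 0.15 for Gal3st1, -0.74 and 0.11 for Smpd3 and -0.53 and 0.18 for Lrrc39, in the greater and less pools.

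**Figure D2:**
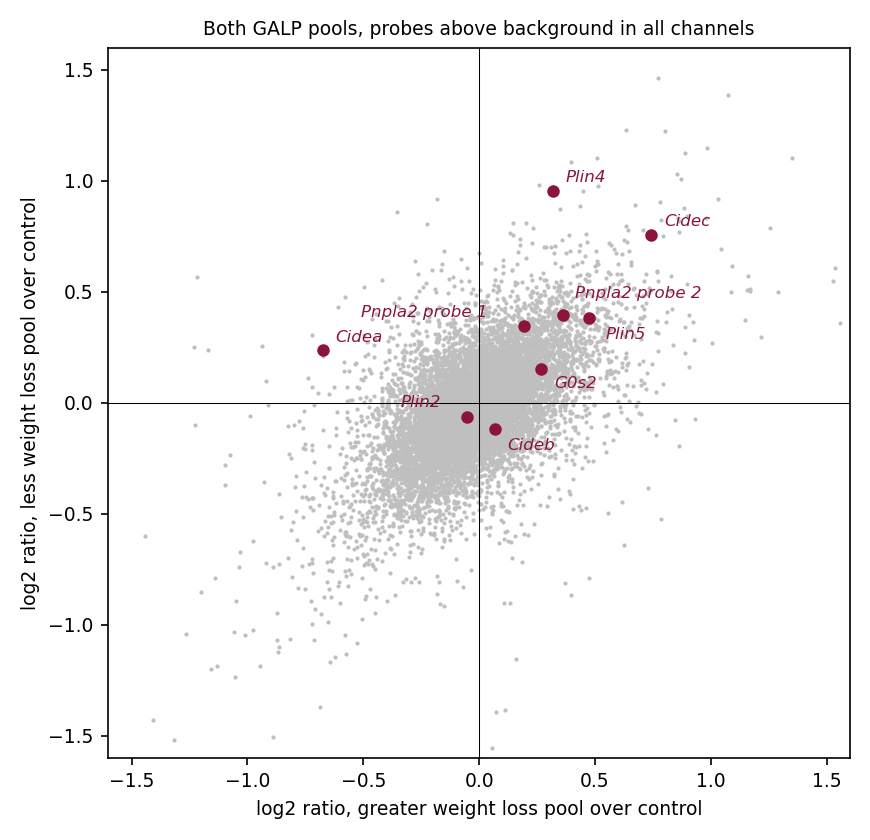
Log2 ratio over control of the greater weight loss pool (x axis) and of the less weight loss pool (y axis), each the mean of 2 arrays. Grey points are probes above background in all 8 channels, of which 58 lie outside the axes, and red points are the 9 member probes among them. Cidec lies near equal values in both pools, Plin4 is displaced toward the less weight loss pool, and Cidea lies in the quadrant that is lower in the greater and higher in the less pool.

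Adipocyte markers were examined because Cidea, Cidec and Plin4 are also fat cell genes. Of the 8 markers on the array, 5 had no signal in either channel of at least 1 array. Lep, Retn and Ucp1, the uncoupling protein of brown fat cells, were at background in all 8 channels. Plin1, the main perilipin of fat cells, was well above background in 1 of 8 channels, and Lipe was so in 2 of 8 at its brightest probe. The summed signal of the 3 others (Adipoq, Cfd and Fabp4) was 3957 to 4640 in the control channels, 5115 to 5809 in the greater pool and 4718 to 5316 in the less pool. Adipoq had pool values of 0.38 in the greater and -0.26 in the less pool, opposite in sign to those of Cidea. Fabp4 had 0.41 and 0.28 at its brightest probe, and Cfd had -0.89 and -0.74. The part of fat cell RNA in the member values was not tested.

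Pnpla5, a lipase of the same family that has been linked to the breakdown of droplets by autophagy, had the lowest ratios of the members, at low signal. Its control signal was 74.9 and 91.6 on the arrays of the greater pool and 96.8 and 58.3 on those of the less pool, and was well above background on the first 3. Its GALP signal was 29.0 and 22.9 in the greater pool and 24.2 and 12.6 in the less pool, and was well above background on none of the 4. The log2 ratios as given were -1.37 and -2.00 in the greater pool and -2.00 and -2.20 in the less pool, with p-values of 0.00311, 4.24e-07, 1.69e-05 and 0.0127. The last of these kept Pnpla5 from being called under the strict reading, and it was called where 1 array of each pool was enough. Because no GALP channel was above background, these ratios are limits. Setting each GALP signal at the higher of its own value and the lowest signal that was well above background in that channel gave a level at least 3.60-fold lower over the 4 arrays, or at least 3.58-fold over the 3 arrays with control signal (computed after the values were seen). On those 3 arrays that floor lay below the GALP signal, so the bound there is the measured ratio itself and is no stricter than it. The limit was at least 2.12-fold with the 1st percentile of signals above background as the floor, and at least 1.12-fold on normexp-corrected signals, to which an offset of 50 is added, so its size depends on the floor and the signals used. The limma p was 0.0217 and the adjusted p 0.382. The probe lies at chr15:83943118-83943177 (mm9, minus strand), and the promoter window of the gene is the one shown above with the E-box match.

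Pnpla3, the lipase whose human variant is tied to fatty liver, was at background on 3 of 4 arrays. Its GALP signal was 7.6 on the first array of the greater pool and 9.8 and 11.2 on the arrays of the less pool, and its control signal there was 11.9, 9.1 and 9.5. On the array of the greater pool with GALP in Cy3 both channels were well above background, at 102.5 for GALP and 49.1 for control. The same control RNA was at background on the other 3 arrays, so the log2 ratio of 1.06 on that array rests on a signal that the other arrays do not show. The ratios elsewhere were -0.65, 0.10 and 0.00 at background, and no direction can be given for Pnpla3. Its probe lies at chr15:84019823-84019882 (mm9, plus strand), from base 4520 of the transcript.

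**Figure D3:**
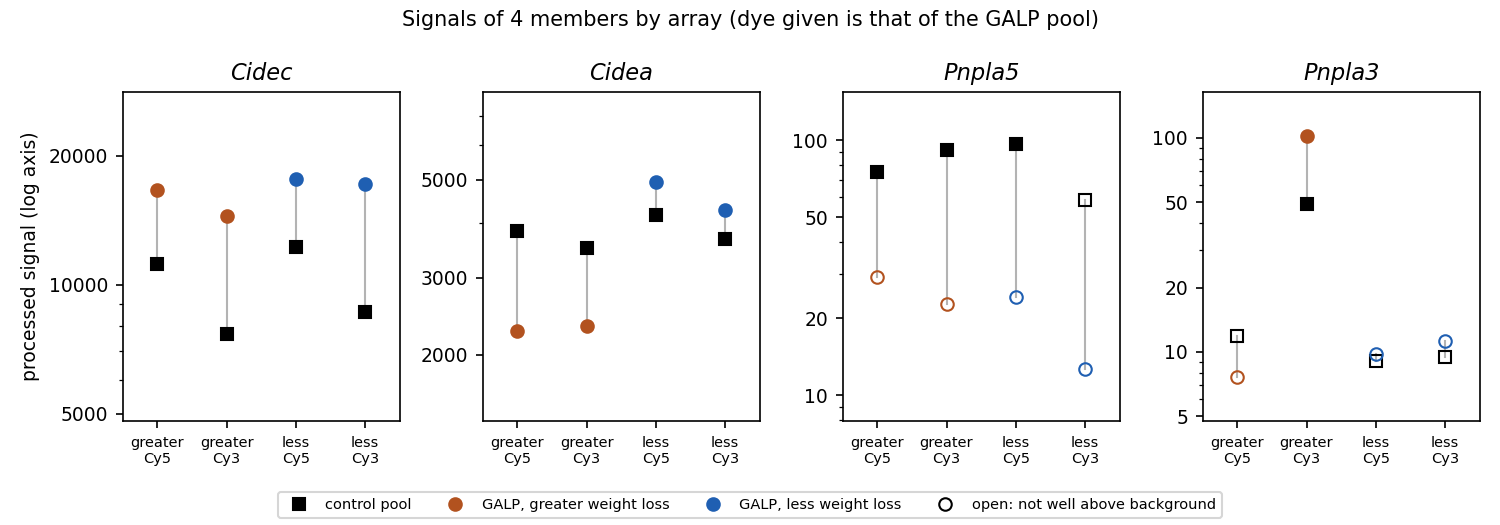
Processed signal (y axis, log scale) of Cidec, Cidea, Pnpla5 and Pnpla3 on the 4 arrays (x axis, named by GALP pool and by the dye of that pool). Squares are the control pool, circles the GALP pools, grey lines join the channels of an array and open symbols were not well above background. GALP lies above control on all 4 arrays for Cidec, changes side between the pools for Cidea and is below the control at background for Pnpla5, while Pnpla3 has signal on a single array.

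The other genes of droplet and lipase biology lay on both sides of 0. Of 31 listed names, 25 were on the array and 22 had signal, and 0 of their 45 probes were called by the rule of the methods. Their median was -0.04 (range -0.49 to 0.32), next to 0.24 for the members. Of the 22, 6 were higher on all 4 arrays (Aup1, Ces1d, Ces1g, Fitm2, Hsd17b13 and Pnpla6) and 7 were lower (Aadac, Acsl3, Fitm1, Ldah, Lipc, Mgll and Pnpla7) at the brightest probe, or 27.3% and 31.8%, beside 12.8% and 14.5% of all genes with signal. Other probes did not always show the same sign. A dimmer probe of Pnpla6, above background in all 8 channels, had -0.18 and -0.21 in the greater and less pools. A dimmer probe of Fitm2 was below 0 on all 4 arrays, with -0.11 and -0.29. It was above background in 3 of 4 GALP and 3 of 4 control channels, and so fell outside the signal filter. Acsl3, an acyl-CoA synthetase of nascent droplets, had the lowest mean at -0.49 ± 0.04, and Pnpla7, a lysophospholipase, had -0.44 ± 0.20 (SD, n = 2 pools). Lpl, the lipase of the vessel wall, had the highest at 0.32 ± 0.52, with 0.69 in the greater and -0.05 in the less pool. Mgll, which cleaves the last fatty acid after Pnpla2 and the hormone-sensitive lipase, was at -0.14 ± 0.02, and the hormone-sensitive lipase itself (Lipe) lacked signal as described above. These genes were named after their values were seen.

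Of 8 transcriptional regulators of droplet genes, all had signal and none of their 11 probes was called. Foxo1, which raises transcription of Pnpla2 when insulin signalling is low, was higher on all 4 arrays at 0.35 ± 0.08 (SD, n = 2 pools), and so was Creb3l3 at 0.21 ± 0.06. Srebf1, which encodes SREBP-1c, was lower on all 4 at -0.38 ± 0.18, and so was Ppargc1a at -0.28 ± 0.01. Ppara (0.07 ± 0.08) and Pparg (-0.08 ± 0.16), the nuclear receptors for which many droplet genes are targets, lay within 1 SD of 0. These regulators were also named after their values were seen.

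**Figure D4:**
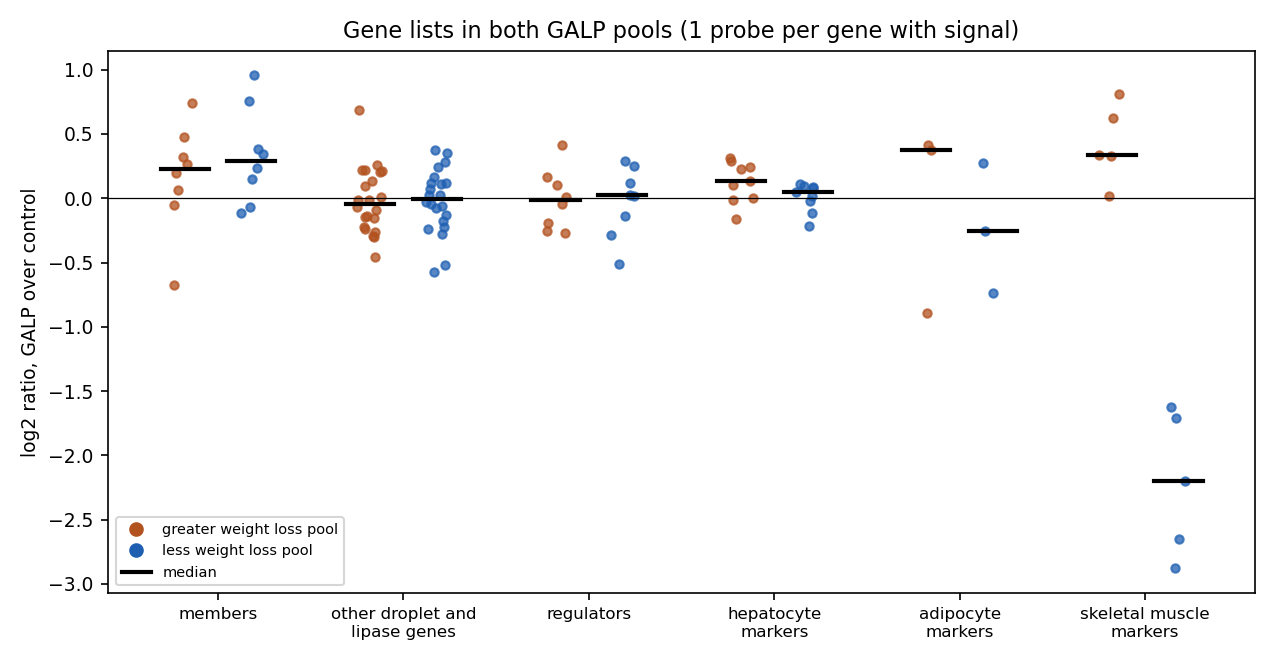
Log2 ratio over control (y axis) of every gene with signal in each gene list (x axis), 1 probe per gene, for the greater and the less weight loss pool. Black bars are medians. The members have medians of 0.23 and 0.29, the other droplet and lipase genes lie around 0, and the skeletal muscle markers are at -1.62 or lower in the less weight loss pool and above 0 in the greater.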

How the data were processed

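The authors hybridised dye-swapped pairs on 60-mer arrays and deposited Feature Extraction output (version 12.0.3.1 per the file headers, 11.0.1.1 in the submitters' processing notes). It holds background-subtracted, LOWESS dye-normalized signal intensity, the deposited log10 ratio of Cy5 over Cy3, and its p-value, deposited for each spot of 1 array. The deposited series table holds the authors' log10 ratios again and was an alternative. The ratios were turned to log2 of GALP over control, spots with outlier marks (232 to 319 per array) were left out, spots of a probe were averaged, and both arrays of a pool were averaged. limma 3.58.1 (R 4.3.3) tested 2 pool values against 0, with 1 residual degree of freedom and Benjamini-Hochberg adjustment over 41037 probes. The control pool was 1 sample, and p-values leave out its spread. The labels give the control channel a weight loss group too, whereas the methods describe a single control pool. Lists used the brightest probe of a gene, and probe positions are on mm9. A probe had signal when at least 1 channel of every array was well above background. By rule, the text names all members, the 3 genes nearest to the member with the highest and to that with the lowest mean ratio among members above background in all channels (Cidec and Cidea), and list genes that passed the rule of the methods, of which there were none. All other list genes with values were named after their values were seen. Members and lists were chosen with earlier results of these data known. Figures used Python 3.11.15 and matplotlib 3.10.9.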

Additional observations from a re-analysis of the deposited data

Results flagged for a closer look

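Cidea was singled out because every array of the pool with greater weight loss was below the control (-0.76 and -0.59 on the log2 scale) and every array of the pool with less weight loss was above it (0.25 and 0.22). The greater pool lay 0.91 below the less pool, written as -0.91. The difference was not tested, since each weight loss group is 1 pool. It was -0.83 with normexp correction and loess, -0.92 after centring, -1.01 with GALP in Cy5 alone and -0.81 with GALP in Cy3 alone, which were compared after the values were seen.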

How the results depend on the processing

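The count of 0 member probes called by the rule of the methods was the same with normexp and loess, centring, the series table and unused outlier marks. It was 2 (Cidec and Pnpla5) when the p-value had to hold on at least 1 array of each pool, and 2, the same genes, with no p-value. It was 1 with GALP in Cy5 alone (Pnpla5) and 1 with GALP in Cy3 alone (Cidec). Leaving out a pool gave 1 to 3 calls: Plin4 without the greater pool, and Cidea, Cidec and Pnpla5 without the less pool. With a single dye or a single pool fewer arrays had to pass. The share of all probes called in those settings is not given, so these member counts have no background beside them. limma called 0 probes on the whole array as reported and after centring, with the series table, without outlier marks, with an intensity trend and with each dye alone. It called 118 with normexp and loess (52 higher and 66 lower, with Cidec the 1 member), 1 over the 15724 probes with signal (lower, no member) and 106 with the 4 arrays and the pool as a random block (39 higher and 67 lower, no member), at an estimated correlation of -0.389. That block takes the dye-swapped arrays of a pool as separate values. limma with a pool left out has no residual degree of freedom and gave no test. The median of the members was 0.24 as reported and 0.18 with normexp and loess, 0.21 with Pnpla5 at its bound (added after the values were seen) and 0.23 to 0.29 with a pool left out. The limit of Pnpla5 was 1.12-fold to 3.58-fold under its 3 alternatives. Cidec (0.55 to 0.95), Plin4 (0.32 to 0.96), Plin5 (0.34 to 0.51), Pnpla2 (0.19 to 0.35) and G0s2 (0.14 to 0.27) kept their sign under all of their 8 or 9 alternatives. Plin2, Cideb and Cidea changed sign under 1, 2 and 1 of them. Every ratio already pairs GALP with control on the same array. No further pairing was possible because the labels give no replicate numbers. Low signal limits Pnpla5 to a bound and leaves Pnpla3 without a direction.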

Other observations

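The probes of Abhd5, the co-activator of Pnpla2, followed the dye in opposite ways. The brighter probe had log2 ratios of -0.67 and -0.21 with GALP in Cy5 and 0.06 and 0.35 with GALP in Cy3, for the greater and less pools. The other had 0.39 and 0.90 with GALP in Cy5 and -0.76 and -0.42 with GALP in Cy3. Both were well above background in all channels, and their pool means lay between -0.30 and 0.24, so a single dye orientation would have given Abhd5 either sign.

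Cfd, an adipokine of the complement system, was lower on all 4 arrays, with log2 ratios of -0.81 and -0.97 in the greater pool and -0.51 and -0.97 in the less pool. The p-value of the scanner software was under 0.01 on 3 arrays and not on the fourth, so the rule of the methods did not call it. Abhd5 and Cfd were named after their values were seen.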
